A study of Trichoderma guizhouense with 100 samples.

Results

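Expansins, swollenin and the CIP proteins are secreted helpers of plant cell wall degradation that were annotated by name in the expression table of Trichoderma guizhouense NJAU4742, a filamentous fungus that degrades lignocellulose. The members were the rows whose description held the word swollenin, expansin, cip1 or cip2, which gave 14 of the 11244 genes in the table. They comprised 1 gene annotated as CIP1 (OPB41189), 1 annotated with the Trichoderma reesei name cip2 (OPB43780, called CIP2 here), 1 annotated as swollenin 2 (OPB44776), 1 annotated as expansin (OPB44083) and 10 annotated as MRSP1/expansin-like. 12 of the 14 reached 1 RPKM in at least 2 libraries and were tested, and the other 2 were MRSP1/expansin-like genes. By definition RPKM is the number of reads scaled to transcript length and to the reads mapped in the library, so it can be set side by side between genes. The deposited values may hold another scaling between libraries, which was not tested.

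Expansins were first described in plants, where they loosen the cell wall without cutting its polysaccharides, and swollenin is the fungal protein of related sequence that swells and disrupts cellulose fibres. In T. reesei, CIP1 and CIP2 are secreted, cellulose-induced proteins that carry a cellulose-binding module, and CIP2 is a glucuronoyl esterase, which cleaves the ester bond between the glucuronic acid side groups of xylan and lignin. The activator XYR1 switches on most cellulase and xylanase genes of that fungus.

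Mycelium was grown in glucose medium (0 h), washed and moved to fresh medium with xylan, with Avicel (microcrystalline cellulose) or without a carbon source (carbon starvation, CS), and harvested at 4, 24 and 72 h. The 100 libraries formed 34 groups from 4 strains: 28 libraries in 10 groups of the wild type (WT), 30 in 10 groups of ∆Tgxyr1, 21 in 7 groups of ∆Tgace1 and 21 in 7 groups of ∆Tgace2. The mutants are deletion strains of NJAU4742 in which a hygromycin resistance cassette replaced the gene, and the number of clones behind each is not given in the sources used here. CS was sampled in WT and ∆Tgxyr1 only, and every group held 3 libraries except WT CS at 4 h and 72 h, which held 2. Since whole mycelium was measured, a smaller number of expressing cells and less RNA per cell cannot be told apart.

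The label of ∆Tgxyr1 was checked first. TgXyr1 (OPB38038) lay between 1.29 and 143 RPKM in the WT libraries and at no more than 0.168 RPKM in ∆Tgxyr1, with 23 of 30 libraries listed at 0. Absolute depth is unknown, but the steps between low RPKM values give the worth of 1 fragment in each library. Its inverse, called depth here, lay between 0.367 and 2.71 of the median. It includes any scaling of the deposited values, so it is not a ratio of reads mapped. At the median depth 1 fragment was worth 0.204 RPKM for CIP1 and 0.0983 RPKM for CIP2, so that a value of 0 allowed up to 3 fragments, or 0.611 RPKM of CIP1 and 0.295 RPKM of CIP2. For 9 libraries the most similar library belonged to another group. They included WT Avicel 72 h replicate 2, closest to a WT CS 72 h library, and 5 of ∆Tgace1.

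The 14 genes covered a wide range of levels. The expansin was detected in all 100 libraries, from 31.5 to 1848 RPKM, and swollenin 2 in all 100, from 0.555 to 23.0 RPKM. CIP1 reached 1796 RPKM and CIP2 2018 RPKM, yet they were above 1 RPKM in 27 and 29 libraries only. Among the MRSP1/expansin-like genes, OPB46883 reached 179 RPKM, and the highest value of any of the other 9 was 15.4 RPKM, for OPB42114. OPB46925 was listed at 0 in all 100 libraries and OPB43872 in 99, with 0.596 RPKM in the remaining library. The order of the 34 group means was seldom resolved: of 33 neighbouring pairs of groups, 2 did not overlap for CIP1, 2 for CIP2, 3 for the expansin, 1 for swollenin 2 and 1 for OPB42114, and every neighbouring pair overlapped for the other genes.

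**Figure D1:**
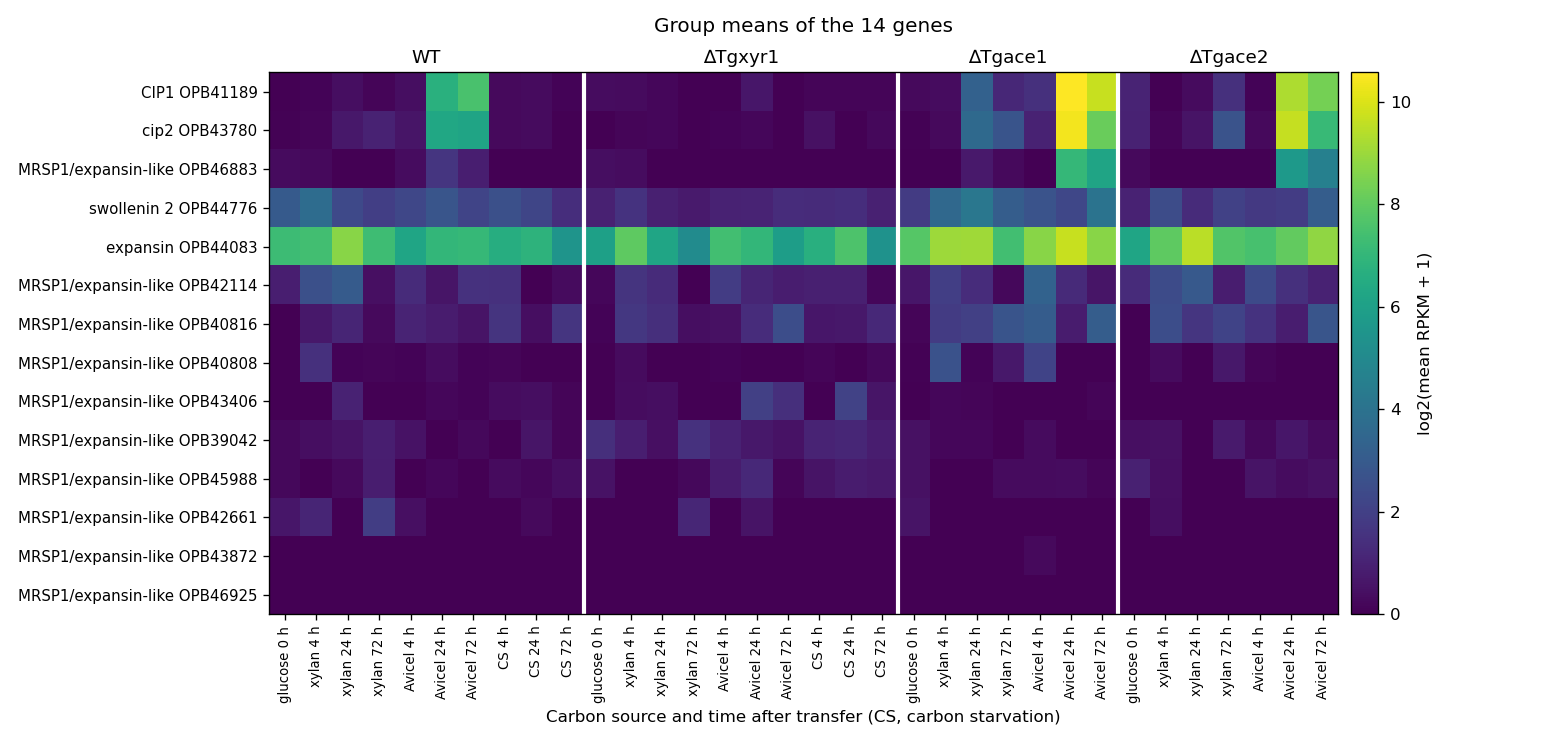
Heat map of log2(mean RPKM + 1) for the 14 genes (rows) in the 34 groups (columns, ordered by strain, medium and time), with brighter (yellow) cells for higher means. CIP1, CIP2 and OPB46883 are brightest in the Avicel 24 h and 72 h groups of ∆Tgace1 and ∆Tgace2, less so in those of WT and dark throughout ∆Tgxyr1, while the expansin is bright in every group.

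CIP1 and CIP2 were nearly silent in WT except on Avicel at 24 h and 72 h. In glucose, CIP1 was listed at 0 in all 3 WT libraries and CIP2 at 0, 0 and 0.0974 RPKM. At 24 h on Avicel CIP1 stood at 0.174, 8.18 and 306 RPKM in replicates 1, 2 and 3, and CIP2 at 0.162, 7.54 and 224 RPKM. Replicate 1 was near the glucose level for both genes and replicate 3 was the highest, so the 3 WT replicates did not agree on a level.

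At 72 h on Avicel CIP1 stood at 411, 0.183 and 144 RPKM and CIP2 at 188, 0.0870 and 27.5 RPKM in replicates 1, 2 and 3. Replicate 2 was at the glucose level for both genes, and its CIP2 value lay within the range of the glucose libraries. On xylan, CIP1 did not exceed 0.983 RPKM and CIP2 did not exceed 1.37 RPKM in any of the 9 WT libraries. Under CS the highest values were 0.575 RPKM for CIP1 and 0.456 RPKM for CIP2.

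A gene was called higher or lower in a comparison when its adjusted p in limma was at most 0.01, its difference in log2(RPKM + 1) was at least 2 and its mean exceeded 2 RPKM in the higher group. This scale understates the change of genes near 0 RPKM. Against glucose, CIP1 and CIP2 were the members called higher in WT on Avicel, 2 of 12 at 24 h, where 6.88% of the 10026 genes tested were called higher, and 2 of 12 at 72 h, where 2.85% were. CIP1 rose by 3.90 ± 0.95 (SE) on the log2 scale at 24 h (limma, adjusted p = 3.1e-04) and by 5.37 ± 0.95 at 72 h (adjusted p = 5.7e-06). CIP2 rose by 3.66 ± 0.94 at 24 h (adjusted p = 5.9e-04) and by 4.13 ± 0.94 at 72 h (adjusted p = 3.3e-04). Without Avicel 24 h replicate 3 the 24 h differences were 1.71 for CIP1 and 1.61 for CIP2 and neither was called, and without Avicel 72 h replicate 1 the 72 h difference of CIP2 was 2.43 and was not called. Fitted on the compared groups alone, whose spread is wide, the 4 adjusted p-values of limma were 0.134 to 0.335 and no call stood.

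The replicates of WT on Avicel ranked alike for the CIP genes and a cellulase gene. At 24 h replicate 3 was highest and replicate 1 lowest for CIP1, CIP2, OPB46883, swollenin 2 and the cellobiohydrolase gene cbh1 (OPB45635), which stood at 7.0, 119 and 2695 RPKM. At 72 h replicate 1 was highest and replicate 2 lowest for CIP1, CIP2 and cbh1, with 4670, 0.972 and 895 RPKM for cbh1, whereas for swollenin 2 replicate 1 was highest and replicate 3 lowest. The expansin ranked otherwise, with replicate 3 highest and replicate 2 lowest at both times. For TgXyr1 the 24 h replicates held 12.4, 15.0 and 79.6 RPKM and the 72 h replicates 143, 36.3 and 17.7 RPKM. Its highest replicate was the same as for the CIP genes at both times, but its lowest at 72 h was replicate 3, and its part in the result was not tested.

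Avicel was then set against xylan and CS at the same time points, to separate the polysaccharide from the loss of glucose. CIP1 was higher on Avicel than on xylan by 3.57 ± 0.95 on the log2 scale at 24 h (limma, adjusted p = 9.6e-04) and by 5.24 ± 0.95 at 72 h (adjusted p = 5.0e-06). CIP2 was higher by 3.06 ± 0.94 at 24 h (adjusted p = 0.0039) and by 3.16 ± 0.94 at 72 h (adjusted p = 0.0043). These were 2 of 12 members at each time, where 4.66% of all genes at 24 h and 2.83% at 72 h were called higher on Avicel. The 72 h difference of CIP1 lay between 3.58 and 7.80 with any 1 library left out and stayed called. The others depended on single libraries: without Avicel 24 h replicate 3 the 24 h values were 1.39 for CIP1 and 1.01 for CIP2, and without Avicel 72 h replicate 1 the 72 h value of CIP2 was 1.47. The CIP2 call also ended without xylan 24 h replicate 1 (2.89) or 3 (3.10), and without xylan 72 h replicate 1 (3.22) or 2 (2.99) or Avicel 72 h replicate 3 (2.83), and both CIP2 calls ended with a pseudocount (the value added before the log) of 0.1 in place of 1. In fits of the compared groups alone the limma adjusted p-values were 0.174 to 0.368.

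Against CS the pattern was similar at 72 h and weaker at 24 h. At 72 h, where 6.42% of all genes were called higher on Avicel, CIP1 was higher by 5.26 ± 1.06 on the log2 scale (limma, adjusted p = 5.0e-05) and CIP2 by 4.17 ± 1.05 (adjusted p = 8.7e-04). At 24 h, where only 0.229% were, CIP1 was higher by 3.61 ± 0.95 (adjusted p = 0.0090). The 24 h call of CIP1 ended in 5 of 6 omissions of a library, with values from 1.43 without Avicel replicate 3 to 3.96 without Avicel replicate 2, and 3.47 to 3.79 without 1 of the CS libraries, and also with a pseudocount of 0.1 or 2 or without the filter on low values. The 72 h call of CIP2 ended without Avicel replicate 1 (2.48) or replicate 3 (3.84) or either CS library (4.17). In fits of the compared groups alone the limma adjusted p-values were 0.235 to 0.463.

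In ∆Tgxyr1 both CIP genes stayed near 0. Of 30 libraries, CIP1 was listed at 0 in 21 and CIP2 at 0 in 21, and the highest values were 1.69 RPKM for CIP1, in Avicel 24 h replicate 3, and 0.471 RPKM for CIP2. On Avicel at 72 h all 3 libraries were listed at 0 for both genes. CIP1 was lower than in WT by -3.42 ± 0.95 on the log2 scale at 24 h (limma, adjusted p = 0.0015) and by -5.37 ± 0.95 at 72 h (adjusted p = 2.2e-06), and CIP2 by -3.52 ± 0.94 at 24 h (adjusted p = 9.4e-04) and by -4.17 ± 0.94 at 72 h (adjusted p = 1.4e-04). These were 2 of 12 members at each time, where 4.79% and 5.47% of all genes were called lower. Without WT Avicel 24 h replicate 3 the 24 h values were -1.24 for CIP1 and -1.47 for CIP2, and without WT Avicel 72 h replicate 1 the 72 h value of CIP2 was -2.48, and these 3 calls ended. In fits of the compared groups alone all 4 ended (limma, adjusted p = 0.165 to 0.205). Every ∆Tgxyr1 library at 72 h was listed below every WT library. WT Avicel 72 h replicate 2, however, held only 0.183 RPKM of CIP1 and 0.0870 RPKM of CIP2. A value of 0 allows 0.225 and 0.109 RPKM even at the highest depth, so the separation of that library from 0 is not resolved.

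Both genes reached their highest levels in ∆Tgace1 on Avicel at 24 h. CIP1 stood there at 1345, 1796 and 1421 RPKM (1521 ± 241, SD, n = 3), and every library exceeded the highest WT value of that time, 306 RPKM. CIP2 stood at 350.4, 2018 and 1594 RPKM (1321 ± 867, SD, n = 3), again above all 3 WT libraries. Replicate 1 there was 1 of the 9 libraries most similar to another group.

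At 72 h in ∆Tgace1 CIP1 stood at 1222, 1156 and 96.5 RPKM and CIP2 at 387, 459 and 15.5 RPKM in replicates 1, 2 and 3. Replicate 3, 1 of the 9 libraries most similar to another group, lay within the WT range for both genes. On xylan at 24 h CIP1 stood at 10.1, 1.73 and 14 RPKM and CIP2 at 14.4, 0.342 and 19.2 RPKM, and at 72 h CIP2 stood at 6.97, 2.91 and 7.33 RPKM. The xylan values were above those of WT except for CIP2 in 24 h replicate 2, and far under those on Avicel.

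In ∆Tgace2 CIP1 stood at 508, 581 and 746 RPKM (612 ± 122, SD, n = 3) on Avicel at 24 h and at 225, 371 and 397 RPKM (331 ± 92.7, SD, n = 3) at 72 h. CIP2 stood at 785, 809 and 789.8 RPKM (795 ± 12.9, SD, n = 3) at 24 h and at 61.3, 199.9 and 148 RPKM (136 ± 70, SD, n = 3) at 72 h. The 24 h libraries of both genes exceeded every WT library of that time, and the 72 h libraries overlapped with WT, where replicate 1 was at 411 RPKM for CIP1 and 188 RPKM for CIP2. In glucose ∆Tgace2 held 0.547, 0.491 and 2.25 RPKM of CIP1 and 0.196, 0.154 and 2.63 RPKM of CIP2, so replicate 3 was the highest glucose library of any strain for both.

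**Figure D2:**
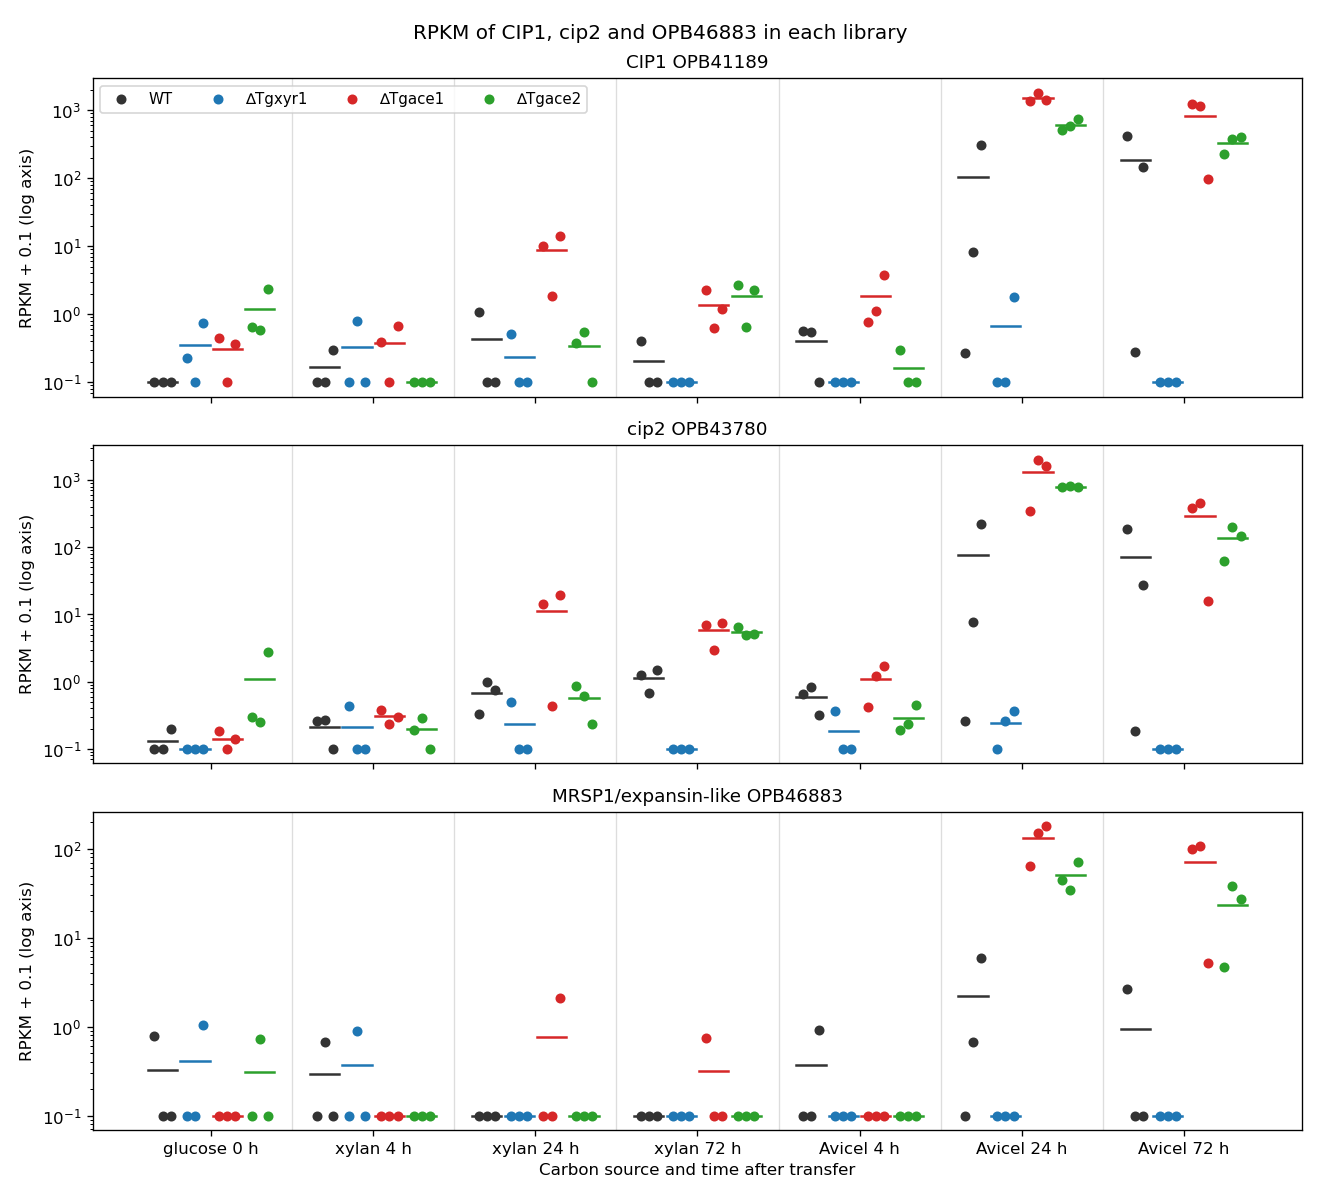
CIP1, CIP2 and OPB46883 in each library (points) and group mean (lines) of the 4 strains in glucose, on xylan and on Avicel, as RPKM + 0.1 on a log axis. On Avicel at 24 h the ∆Tgace1 and ∆Tgace2 libraries sit together at the top, the WT libraries spread from 0.174 to 306 RPKM for CIP1, and the ∆Tgxyr1 libraries stay at the bottom.

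Against WT on Avicel at 24 h, 4 of 12 members were called higher in ∆Tgace1, where 4.16% of all genes were called higher, and 3 of 12 in ∆Tgace2, where 7.52% were. CIP1 was higher by 6.66 ± 0.95 on the log2 scale in ∆Tgace1 (limma, adjusted p = 1.8e-08) and by 5.34 ± 0.95 in ∆Tgace2 (adjusted p = 2.3e-06). CIP2 was higher by 6.32 ± 0.94 in ∆Tgace1 (adjusted p = 5.3e-08) and by 5.93 ± 0.94 in ∆Tgace2 (adjusted p = 1.9e-07). With any 1 library left out these 4 values lay between 3.51 and 8.85 and stayed called, but in fits of the compared groups alone their limma adjusted p-values were 0.0408 to 0.0698. Both mutants were compared with the same 3 WT libraries.

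At 72 h 5 of 12 members were called higher in ∆Tgace1, where 3.26% of all genes were, and 3 of 12 in ∆Tgace2, where 3.9% were. CIP1 was higher by 3.64 ± 0.95 on the log2 scale in ∆Tgace1 (limma, adjusted p = 0.0011) and by 2.96 ± 0.95 in ∆Tgace2 (adjusted p = 0.0093). CIP2 was higher by 2.99 ± 0.94 in ∆Tgace1 (adjusted p = 0.0065), while its difference of 2.77 ± 0.94 in ∆Tgace2 was not called (adjusted p = 0.014). The 3 calls rested on WT Avicel 72 h replicate 2, without which the values were 1.08 for CIP1 and 0.97 for CIP2 in ∆Tgace1 and 0.40 for CIP1 in ∆Tgace2, and none was called. They also ended without ∆Tgace1 replicate 1 (3.02 for CIP1, 2.27 for CIP2) or 2 (3.06 and 2.15), and for ∆Tgace2 without any 1 of its own libraries (2.81 to 3.22). The limma adjusted p-values were 0.417 to 0.503 when the compared groups were fitted alone. With each library weighted by its fit to the model (array weights) the CIP1 difference in ∆Tgace2 was -0.16, and neither CIP call of ∆Tgace1 stood.

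OPB46883, annotated only as MRSP1/expansin-like, was high in the same groups as the CIP genes. The WT libraries on Avicel held 0, 0.569 and 5.74 RPKM after 24 h and 2.55, 0 and 0 RPKM after 72 h. The ∆Tgace1 libraries held 63.5, 152 and 179 RPKM after 24 h and 99.3, 107 and 5.13 RPKM after 72 h, and the ∆Tgace2 libraries 44.6, 34.5 and 71.3 RPKM and 4.62, 37.7 and 27.2 RPKM. Every one of these 12 mutant libraries exceeded all WT libraries of the same time, and in ∆Tgxyr1 28 of 30 libraries were listed at 0, with a highest value of 0.936 RPKM.

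OPB46883 was higher than in WT by 5.79 ± 0.52 on the log2 scale in ∆Tgace1 at 24 h (limma, adjusted p = 3.4e-15) and by 4.73 ± 0.52 at 72 h (adjusted p = 1.3e-11). In ∆Tgace2 it was higher by 4.48 ± 0.52 at 24 h (adjusted p = 4.6e-11) and by 3.59 ± 0.52 at 72 h (adjusted p = 5.8e-08). With any 1 library left out the 4 values lay between 3.05 and 6.60 and stayed called. In fits of the compared groups alone the 24 h calls stood (limma, adjusted p = 0.0074 and 0.0043) and the 72 h calls did not (0.121 and 0.115). A value of 0 allowed up to 2.16 RPKM of this gene at the median depth, and from 0.794 to 5.87 RPKM over the range of depths, so the levels in WT rest on few fragments. In ∆Tgace1 the gene was listed at 0 in 13 of 21 libraries, among them all 3 in glucose, and in ∆Tgace2 in 14 of 21. The ID of OPB46883 directly follows the one that the study gives for the gene replaced in ∆Tgace1. Positions were not looked up, and any part of the cassette in the ∆Tgace1 values was not tested.

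CIP1, CIP2 and OPB46883 were found in the same libraries. All 15 libraries with OPB46883 above 1 RPKM also had CIP1 and CIP2 above 1 RPKM, and 25 libraries had both CIP genes above it, out of 31 with at least 1 of the 3. Of those 25, none was a ∆Tgxyr1 library, since CIP2 was never above 1 RPKM there. Over the 34 group means, Pearson's r of log2(RPKM + 1) was 0.981 between CIP1 and CIP2, 0.952 between CIP1 and OPB46883 and 0.942 between CIP2 and OPB46883. These groups share strains and media, and most of them are near 0 for all 3 genes.

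The proportion of CIP2 to CIP1 was lower at 72 h than at 24 h on Avicel in ∆Tgace2, where both genes were high in every library. In ∆Tgace2 the ratio of CIP2 to CIP1 RPKM was 1.54, 1.39 and 1.06 at 24 h and 0.273, 0.539 and 0.373 at 72 h, without overlap. The geometric means were 1.32 and 0.380, and the exact two-sided permutation test gave p = 0.1, which is the smallest p that 3 against 3 libraries allow. In ∆Tgace1 the ratio was 0.260, 1.12 and 1.12 at 24 h and 0.317, 0.397 and 0.161 at 72 h, with overlap through 24 h replicate 1 (exact permutation p = 0.3). That replicate and 72 h replicate 3 were among the 9 libraries most similar to another group. In WT it was 0.922 and 0.731 in the 2 libraries at 24 h and 0.458 and 0.191 in the 2 at 72 h that expressed both genes above 1 RPKM.

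**Figure D3:**
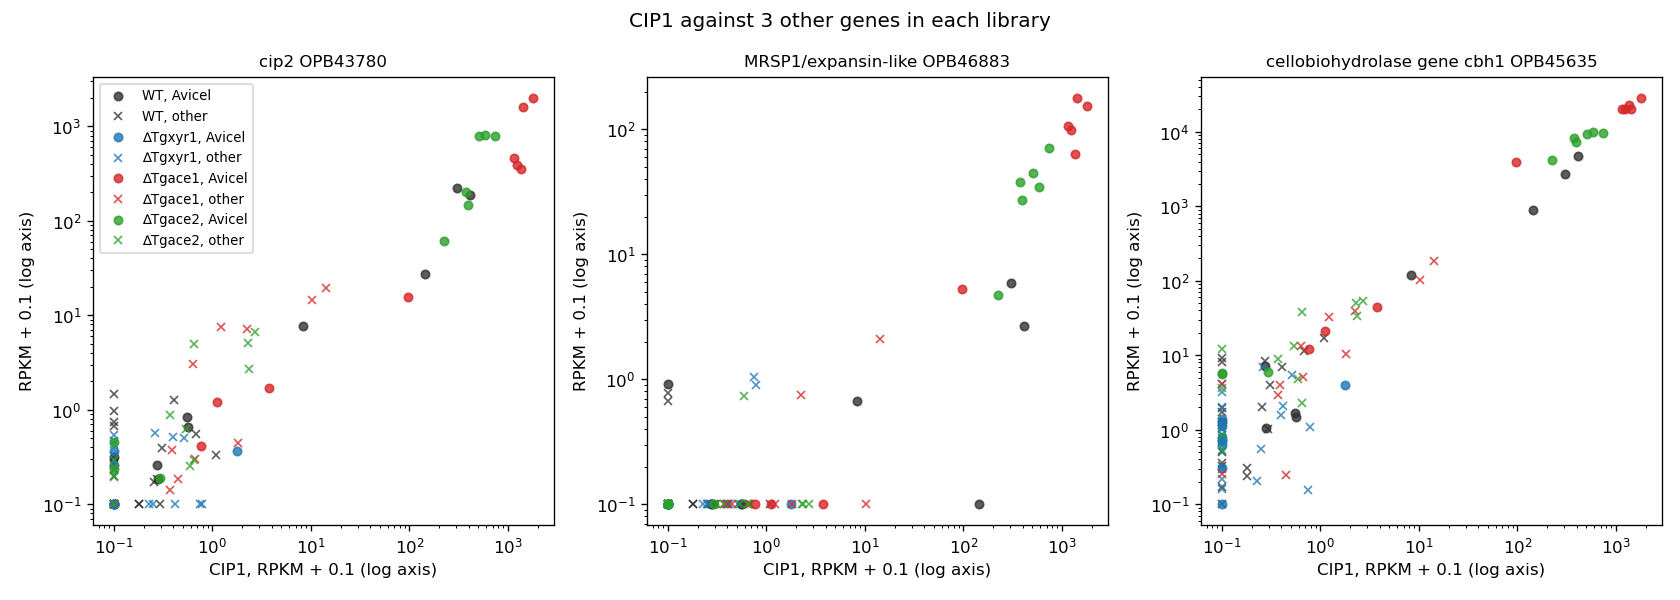
CIP2, OPB46883 and cbh1 against CIP1 in all 100 libraries, each as RPKM + 0.1 on log axes, with circles for Avicel libraries and crosses for the other media. The libraries with CIP1 above 100 RPKM are circles only, and CIP2 and cbh1 are high in each of them.

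The genes whose pattern over the 34 group means was most like that of CIP1 were cellulases: the endoglucanase gene OPB43431 (r = 0.988), cel61a (OPB41190, r = 0.988), which belongs to a family now known as lytic polysaccharide monooxygenases, and cel61b (OPB46655, r = 0.986). For CIP2 they were a GH10 xylanase gene (OPB45659, r = 0.985), cel61b (r = 0.984) and a GH30 xylanase gene (OPB43779, r = 0.984). The IDs of cel61a and CIP1 are consecutive, and so are those of the GH30 gene and CIP2, but the positions were not looked up in a genome here. On Avicel at 24 h the means of cel61a were 109 RPKM in WT, 1115 RPKM in ∆Tgace1 and 583 RPKM in ∆Tgace2, and those of the GH30 gene were 27.2, 682 and 489 RPKM. The other ID neighbours, a GH3 gene (OPB41188) beside CIP1 and a hemerythrin domain gene (OPB43781) beside CIP2, had means of 0.0862 and 6.04 RPKM in ∆Tgace1.

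A further gene outside the description rule, OPB45638, was named after its values were seen, because the study's list of secreted proteins calls it an expansin while the expression table describes it as a conserved hypothetical protein. The WT libraries on Avicel held 0.323, 8.94 and 302 RPKM after 24 h and 594, 0.0851 and 129 RPKM after 72 h. The replicates ranked as for CIP1, and in ∆Tgxyr1 its highest value was 0.526 RPKM.

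Swollenin 2 behaved differently from the CIP genes: it was low but present everywhere, and its highest WT level was on xylan at 4 h. WT held 7.85, 10.02 and 3.27 RPKM in glucose, 13.3, 10.6 and 12.99 RPKM on xylan at 4 h, and 3.42, 2.86 and 2.56 RPKM on xylan at 72 h. On Avicel it held 3.45, 4.44 and 3.26 RPKM at 4 h, 5.0, 5.34 and 7.19 RPKM at 24 h, and 7.72, 1.91 and 0.958 RPKM at 72 h. All 3 xylan 4 h libraries were above every other WT library, and no WT comparison of swollenin 2 was called.

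In ∆Tgxyr1 swollenin 2 (OPB44776) was low throughout, between 0.555 and 2.81 RPKM in the 30 libraries. On xylan at 4 h it stood at 1.34, 2.81 and 1.53 RPKM, all below the 3 WT libraries, and it was lower by -2.23 ± 0.32 on the log2 scale (limma, adjusted p = 4.0e-08), the 1 member of 12 called there, where 3.23% of all genes were called lower. It was -1.89 and not called with a pseudocount of 2. In glucose it stood at 1.05, 0.646 and 1.22 RPKM, a difference of -1.93 that was under the limit of 2 but passed it without WT replicate 3 (-2.33) or ∆Tgxyr1 replicate 3 (-2.02), or with a pseudocount of 0.1 (-2.63). The differences lay between -2.23 and -0.39 in the 10 conditions, and the libraries did not overlap with WT except on Avicel at 72 h. The adjusted p was at most 0.01 in 7 of the 10 conditions.

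In ∆Tgace1 swollenin 2 (OPB44776) was highest on xylan at 24 h, with 23.0, 5.04 and 23.0 RPKM, and on Avicel at 72 h, with 17.3, 14.9 and 13.7 RPKM. The Avicel 72 h libraries all exceeded the 3 WT libraries, and the difference of 2.14 ± 0.32 on the log2 scale was called (limma, adjusted p = 9.7e-08), but not without WT Avicel 72 h replicate 2 (1.97) or replicate 3 (1.69), nor in a fit of these groups alone (adjusted p = 0.13), nor with a pseudocount of 2 (1.84) or array weights (1.08). On xylan at 24 h the libraries did not overlap with WT, at 5.03, 3.20 and 3.78 RPKM, and the difference of 1.62 was under the limit, but was 2.28 without ∆Tgace1 replicate 2. In glucose ∆Tgace1 held 3.18, 3.36 and 1.22 RPKM. Against its own glucose libraries the gene rose by 2.14 ± 0.32 on xylan at 24 h and by 2.24 ± 0.32 on Avicel at 72 h, calls that ended without glucose replicate 3 (1.83 and 1.93) and, on xylan, without replicate 1 or 3 (1.81 each). In fits of the compared groups alone their limma adjusted p-values were 0.0602 and 0.0127, and neither was called with a pseudocount of 2.

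In ∆Tgace2 swollenin 2 (OPB44776) was close to the level of ∆Tgxyr1 in glucose, at 0.765, 1.34 and 0.995 RPKM, all below WT. That difference of -1.89 was under the limit, and was -2.29 without WT glucose replicate 3 and -2.54 with a pseudocount of 0.1. It rose to 6.66, 6.97 and 9.04 RPKM on Avicel at 72 h, a difference of 2.07 ± 0.32 on the log2 scale from its own glucose libraries (limma, adjusted p = 2.0e-07), which was 1.98 without glucose replicate 1 and 1.95 without Avicel 72 h replicate 3, and 1.65 with a pseudocount of 2. On xylan at 4 h and 24 h, and on Avicel at 4 h and 24 h, swollenin 2 was also below WT without overlap. Those differences were -1.27, -1.02, -0.47 and -0.90, and none was called. At 72 h it overlapped with WT on xylan and on Avicel.

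**Figure D4:**
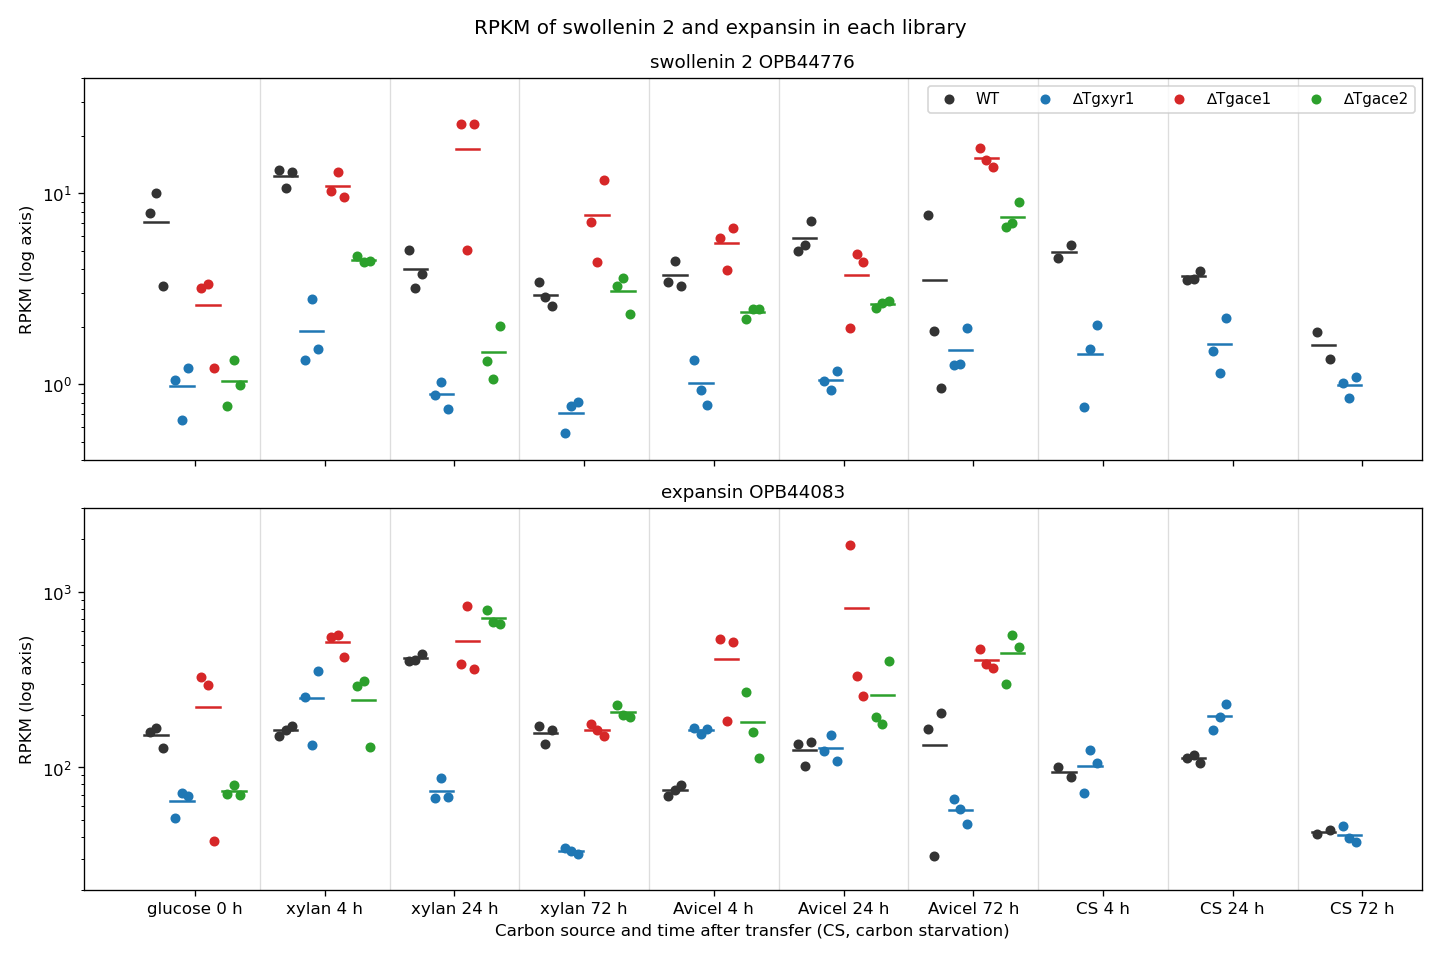
Swollenin 2 and the expansin in each library (points) and group mean (lines) of the 4 strains in glucose, on xylan, on Avicel and under CS, as RPKM on a log axis. Swollenin 2 is lowest in ∆Tgxyr1, between 0.555 and 2.81 RPKM, and the expansin is present in every library, at no less than 31.5 RPKM.

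The expansin OPB44083 was expressed in glucose already. WT held 159, 169 and 129.9 RPKM in glucose, 402, 409.6 and 444 RPKM on xylan at 24 h, and 172, 137 and 163 RPKM on xylan at 72 h. The 24 h xylan libraries were above every other WT library, by 1.46 on the log2 scale over glucose (limma, adjusted p = 0.0088), which is under the limit of 2. On Avicel it held 68.8, 74.6 and 79.1 RPKM at 4 h and 136, 102 and 139.9 RPKM at 24 h, and under CS at 72 h 41.8 and 43.9 RPKM. At 72 h on Avicel replicate 2 stood at 31.5 RPKM, far below replicates 1 and 3 at 165 and 204 RPKM. No WT comparison of the expansin was called.

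In ∆Tgxyr1 the expansin was lower than in WT on xylan at the later times. After 24 h it held 66.6, 86.8 and 67.4 RPKM, after 72 h 34.6, 33.3 and 32.3 RPKM, and after 4 h 253, 134 and 355 RPKM. The 24 h and 72 h libraries were all below WT and the 4 h libraries overlapped with WT. The difference was -2.5 ± 0.47 on the log2 scale at 24 h (limma, adjusted p = 6.0e-06) and -2.19 ± 0.47 at 72 h (adjusted p = 5.9e-05), in each case the 1 member of 12 called lower, where 5.59% and 6.51% of all genes were. With any 1 library left out these values lay between -2.62 and -2.13. Taken as a change from each strain's own glucose libraries, the difference from WT was at its lowest -1.26 over 9 comparisons, and none was called lower. The xylan values are thus not read as a loss particular to xylan. On Avicel at 4 h ∆Tgxyr1 stood at 168, 155 and 165 RPKM, above the 3 WT libraries, with a difference of 1.12 that was not called (adjusted p = 0.057).

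In ∆Tgace1 the expansin (OPB44083) was high on Avicel, and on xylan at 4 h and 24 h. On xylan it held 516 ± 77.8, 529 ± 262 and 163 ± 12.9 RPKM (mean ± SD, n = 3) after 4, 24 and 72 h. The xylan 4 h difference from WT, 1.65, was under the limit (limma, adjusted p = 0.0038). On Avicel it held 538, 184 and 519.8 RPKM after 4 h, 1848, 334 and 255 RPKM after 24 h, and 471, 390.1 and 369 RPKM after 72 h. All 9 Avicel libraries exceeded the WT libraries of the same time. The difference was 2.31 ± 0.47 on the log2 scale at 4 h (limma, adjusted p = 6.6e-05), where it was the 1 member of 12 called and 2.53% of all genes were called higher, and 2.10 ± 0.47 at 24 h (adjusted p = 1.9e-04). The 4 h call held with any 1 library left out (2.05 to 2.82), but fits of the compared groups alone gave adjusted p-values of 0.0154 at 4 h and 0.103 at 24 h. The 24 h difference was 1.22 without ∆Tgace1 replicate 1, the library at 1848 RPKM, and 1.96 without WT replicate 2, and was then not called, nor was it with array weights (1.45). That ∆Tgace1 replicate was 1 of the 9 libraries most similar to another group, and the 24 h call also ended without those 9. At 72 h the difference of 1.98 was just under the limit, and it was 2.01 to 2.48 without 1 of WT replicates 1 and 3 or ∆Tgace1 replicates 2 and 3. The glucose libraries of ∆Tgace1, at 329, 297 and 38.2 RPKM, spread more than those of WT, and replicate 3 there was most similar to a library of another group.

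In ∆Tgace2 the expansin (OPB44083) was low in glucose and high on xylan at 24 h. It stood at 70.7, 78.9 and 69.9 RPKM in glucose and at 788, 673 and 660.1 RPKM (707 ± 70.1, SD, n = 3) on xylan at 24 h, a rise of 3.25 ± 0.47 on the log2 scale (limma, adjusted p = 2.9e-08), with 3.17 to 3.31 when any 1 library was left out. The xylan libraries all exceeded those of WT, but the difference from WT of 0.75 was not called. On Avicel at 72 h it stood at 299, 569 and 488 RPKM, above the 3 WT libraries, by 2.08 ± 0.47 (adjusted p = 2.6e-04). That call ended without WT replicate 2, the library at 31.5 RPKM (1.24), and without ∆Tgace2 replicate 2 (1.89) or 3 (just under 2), with array weights (1.41), and in a fit of these groups alone (limma, adjusted p = 0.217).

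The remaining MRSP1/expansin-like genes were low. OPB42114 was the one called on xylan in WT. It held 0.595, 1.28 and 0.640 RPKM in glucose, and on xylan 4.37, 5.61 and 4.93 RPKM after 4 h, 8.55, 6.53 and 6.49 RPKM after 24 h, and 0, 0 and 1.04 RPKM after 72 h. The 24 h libraries were above all other WT libraries. The rise over glucose at 24 h was 2.17 ± 0.53 on the log2 scale (limma, adjusted p = 5.1e-04), the 1 member of 12 called, where 4.58% of all genes were called higher. It was not called with a pseudocount of 0.1 or 2 in place of 1.

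At 24 h OPB42114 was lower on Avicel, at 0, 1.5 and 0 RPKM, than on xylan by -2.59 ± 0.53 on the log2 scale (limma, adjusted p = 2.7e-05), where 7.78% of all genes were lower, and this was -1.92 with a pseudocount of 2. It was listed at 0 in the 3 CS libraries of 24 h, from which xylan differed by 3.02 ± 0.53 (adjusted p = 1.6e-06), where 7.37% of all genes were higher on xylan. In ∆Tgxyr1 on xylan at 24 h it stood at 2.55, 0 and 1.84 RPKM and in ∆Tgace1 at 0.952, 3.64 and 0 RPKM, all below the WT libraries, while ∆Tgace2, at 7.76, 5.75 and 6.5 RPKM, overlapped with WT. At the median depth 1 fragment of OPB42114 was worth 0.657 RPKM, so the low values here rest on few fragments. The differences of -1.91 in ∆Tgxyr1 and -1.97 in ∆Tgace1 were just under the limit. They passed it without ∆Tgxyr1 replicate 1 (-2.27) or 3 (-2.11), or without ∆Tgace1 replicate 2 (-2.54) or WT replicate 2 (-2.02) or 3 (-2.02). The 3 genes most like OPB42114 over the 34 group means were OPB44339 (r = 0.817), a histone H2A gene (OPB36953, r = 0.812) and arp2 (OPB43834, r = 0.801), which is a weaker likeness than that of the CIP genes.

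On Avicel at 4 h OPB42114 stood at 9.82, 1.55 and 15.4 RPKM in ∆Tgace1. Its rise of 2.37 ± 0.53 on the log2 scale over the glucose libraries of that strain, at 1.09, 0 and 0.573 RPKM, was called (limma, adjusted p = 1.4e-04) and was 1.82 without replicate 3. In a fit of these groups alone the adjusted p was 0.0726, and the rise was 1.84 with a pseudocount of 2. The libraries overlapped with WT through replicate 2.

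OPB40816 was above 1 RPKM in 46 of 100 libraries and was highest in the mutants. The 3 glucose libraries of WT were at 0, and no WT library exceeded 2.58 RPKM. In ∆Tgace1 it stood at 7.16, 4.29 and 10.7 RPKM on Avicel at 4 h, at 13.6, 0.458 and 3.32 RPKM on xylan at 72 h and at 11.5, 7.64 and 4.15 RPKM on Avicel at 72 h. The last group lay above WT, at 0.492, 0.916 and 0 RPKM, by 2.53 ± 0.63 on the log2 scale (limma, adjusted p = 6.5e-04), a call that held with any 1 library left out (2.23 to 2.87) but not in a fit of these groups alone (adjusted p = 0.0568) or with a pseudocount of 2 (1.93).

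The other 7 calls of OPB40816 were rises over the glucose libraries of the same mutant. In ∆Tgace1 they were 2.85 on Avicel at 4 h, 2.89 on Avicel at 72 h and 2.03 on xylan at 72 h on the log2 scale. In ∆Tgace2, where it was listed at 0 in all 3 glucose libraries, they were 2.40 on xylan at 4 h (2.40, 6.75 and 4.60 RPKM), 2.08 on xylan at 72 h (4.73, 3.32 and 2.03 RPKM) and 2.37 on Avicel at 72 h (0.498, 8.12 and 9.18 RPKM). In ∆Tgxyr1 it was 2.34 on Avicel at 72 h (6.91, 3.56 and 3.49 RPKM). The first 2 of ∆Tgace1 held with any 1 library left out. The xylan 72 h call of ∆Tgace1 was 1.18 without replicate 1, 2.06 without replicate 3 and 1.96 without glucose replicate 2 or 3. In ∆Tgace2 the values were 2.13 on xylan at 4 h without replicate 2, 1.86 to 2.08 on xylan at 72 h in 5 of 6 omissions, and 1.97 and 1.89 on Avicel at 72 h without replicates 2 and 3, and in ∆Tgxyr1 2.07 without replicate 1, none of them called. With a pseudocount of 2 the calls of OPB40816 other than the first 2 of ∆Tgace1 ended, at 1.39 to 1.71, and in fits of the compared groups alone those on xylan at 72 h in ∆Tgace1 and on Avicel at 72 h in ∆Tgace2 did (limma, adjusted p = 0.0994 and 0.0448).

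OPB40808 was seen mainly at 4 h. On xylan at 4 h it stood at 1.51, 3.05 and 0.694 RPKM in WT, at 3.73, 5.55 and 6.99 RPKM in ∆Tgace1 and at 0.303, 0.203 and 0.244 RPKM in ∆Tgxyr1, without overlap between these 3 strains. In ∆Tgace2 its mean was 0.240 RPKM, also below WT without overlap. At the median depth 1 fragment was worth 0.182 RPKM, so the ∆Tgxyr1 and ∆Tgace2 values rest on few fragments. The rise of OPB40808 in ∆Tgace1 over glucose was 2.58 ± 0.29 on the log2 scale (limma, adjusted p = 7.2e-12) and held with any 1 library left out (2.41 to 2.79), but was 1.83 and not called with a pseudocount of 2. The differences from WT, of 1.28 in ∆Tgace1 (adjusted p = 2.3e-04), -1.05 in ∆Tgxyr1 (adjusted p = 0.0023) and -1.06 in ∆Tgace2 (adjusted p = 0.0025), were under the limit of 2. On Avicel at 4 h ∆Tgace1 held 4.70, 0 and 5.53 RPKM, against 0, 0 and 0.203 RPKM in WT. That difference of 1.65 was under the limit and was 2.52 without replicate 2, 1 of the 9 libraries most similar to another group.

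OPB43406 differed from the genes above in having its highest library in ∆Tgxyr1, as did OPB39042 and OPB45988, described below. It stood there at 3.06, 4.39 and 1.49 RPKM on Avicel at 24 h, at 2.37, 0.768 and 1.98 RPKM on Avicel at 72 h and at 5.18, 1.32 and 3.15 RPKM under CS at 24 h. In WT 21 of 28 libraries were listed at 0, and all 21 libraries of ∆Tgace2 were. The ∆Tgxyr1 libraries did not overlap with WT in these 3 groups, and the differences of 1.75 on Avicel at 24 h (limma, adjusted p = 1.2e-07) and 1.59 under CS at 24 h were under the limit of 2. The first was 2.06 without ∆Tgxyr1 replicate 3, and with a pseudocount of 0.1 both passed, at 4.03 and 3.18. At the median depth 1 fragment of this gene was worth 0.543 RPKM, so these levels correspond to few fragments. It was worth more in the ∆Tgxyr1 Avicel 24 h libraries, which lay at 0.552, 0.622 and 0.367 of the median depth.

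OPB42661, OPB39042 and OPB45988 were not called by limma in any of the 84 comparisons. OPB42661 was listed at 0 in 87 libraries and reached 6.83 RPKM in WT on xylan at 72 h, in replicate 1 alone. OPB39042 was above 1 RPKM in 11 of 30 ∆Tgxyr1 libraries, with at most 3.16 RPKM, and in 4 of 28 WT libraries. OPB45988 reached 4.08 RPKM in 1 ∆Tgxyr1 library and was listed at 0 in 63 of 100. An unadjusted p under 0.05 was reached in 9 comparisons for OPB42661, 2 for OPB39042 and 3 for OPB45988.

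**Figure D5:**
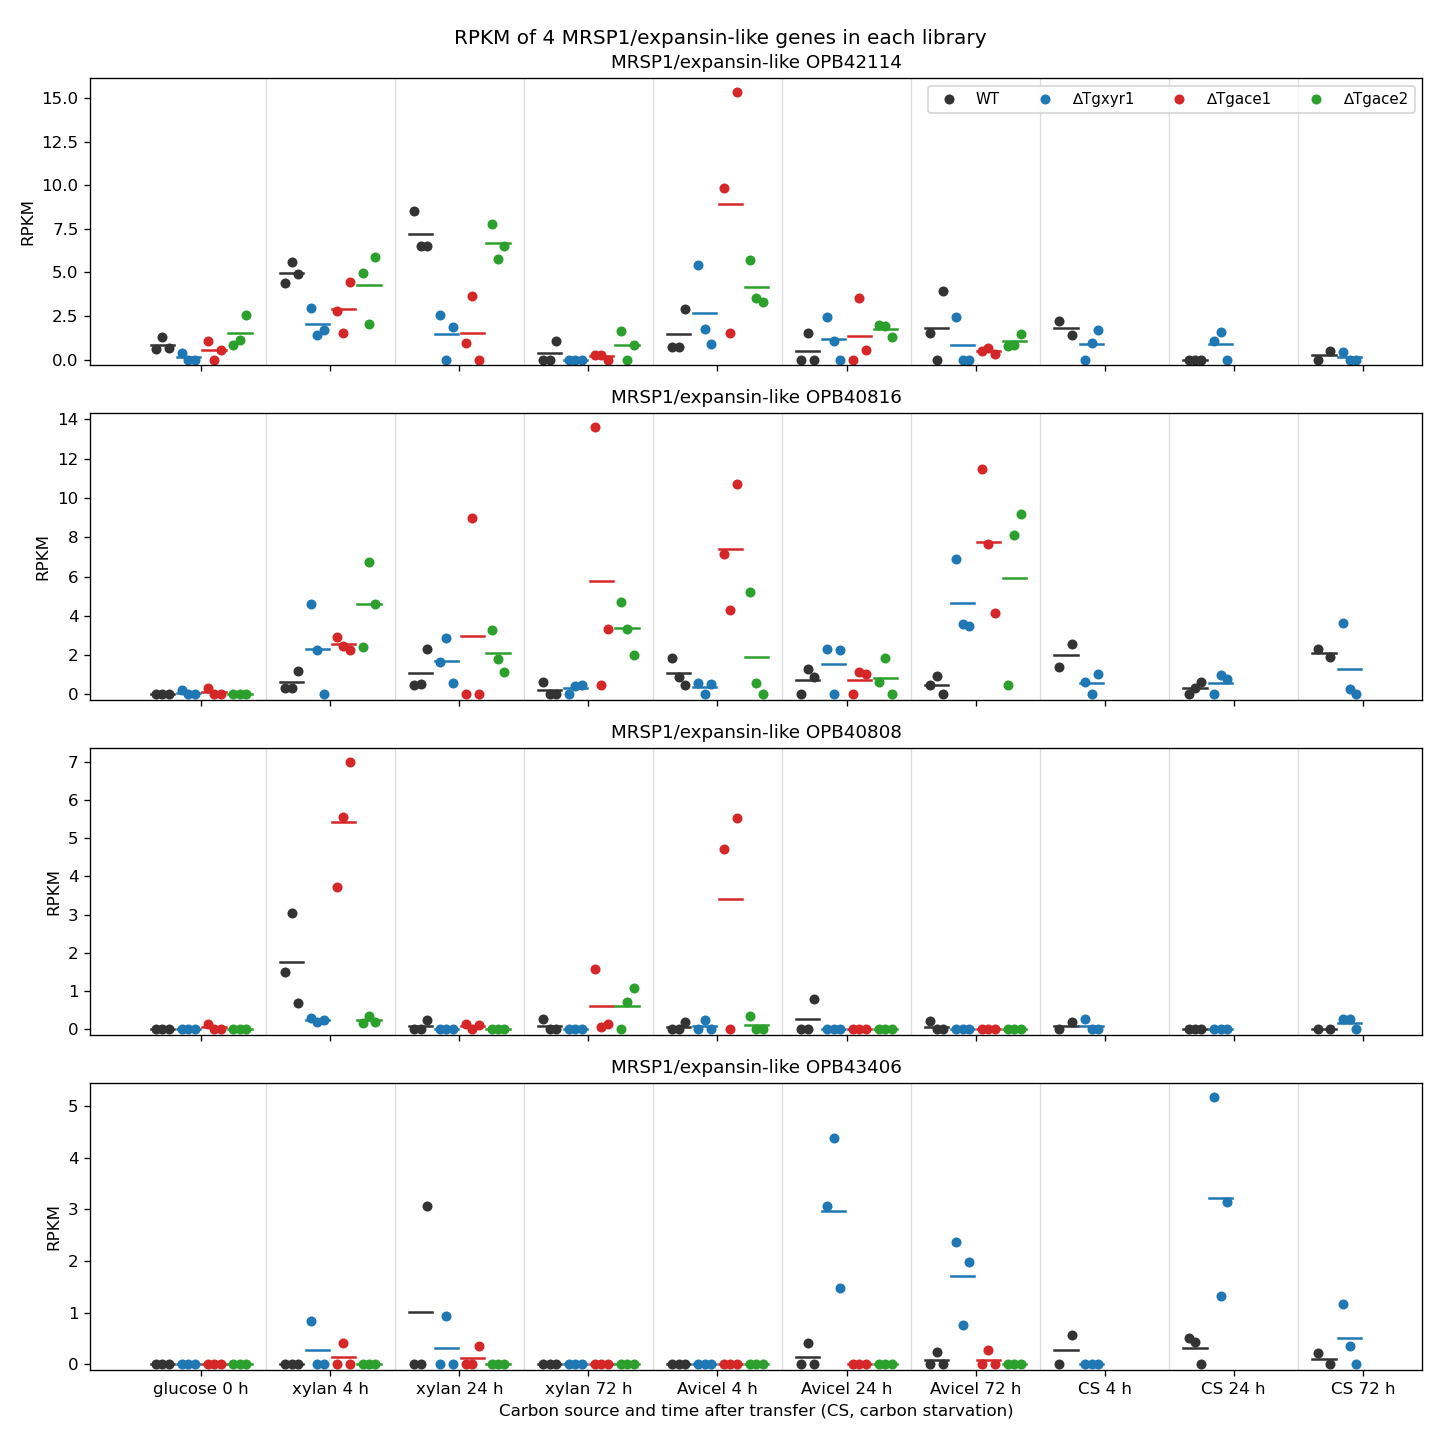
The MRSP1/expansin-like genes OPB42114, OPB40816, OPB40808 and OPB43406 in each library (points) with group means (lines), in RPKM on a linear axis, by strain, medium and time. Within WT, OPB42114 is highest on xylan at 24 h (8.55, 6.53 and 6.49 RPKM), its highest library of all is ∆Tgace1 on Avicel at 4 h (15.4 RPKM), and OPB43406 is seen mostly in ∆Tgxyr1.

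Counted over the 84 comparisons, the 12 genes tested gave 79 calls. In the comparisons and directions with such a call, 0.229% to 8.47% of all genes were called. The share over all genes was not totalled, so the 79 is not read as many or few. Against their own glucose libraries the xylan libraries of ∆Tgace1 had 1 of 12 members called higher after 4 h (7.61% of all genes), 2 after 24 h (6.41%) and 1 after 72 h (5.97%), and the Avicel libraries 2 after 4 h (6.05%), 3 after 24 h (4.27%) and 5 after 72 h (4.07%). The xylan libraries of ∆Tgace2 had 1 after 4 h (5.86%), 1 after 24 h (5.19%) and 1 after 72 h (8.47%), and the Avicel libraries 3 after 24 h (7.24%) and 6 after 72 h (5.79%). In ∆Tgxyr1 it was 1, on Avicel at 72 h (7.28%). No member was called lower against glucose in any strain, and where limma called no member, 0 to 3 had an unadjusted p under 0.05. Since a gene that passed the low value filter only in the group where it is high had to differ, these counts describe the genes and carry no test.

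The CIP genes rose over glucose in both mutants by large amounts. CIP1 rose by 10.30 on the log2 scale in ∆Tgace1 and by 8.27 in ∆Tgace2 on Avicel at 24 h, and by 8.75 and 7.36 at 72 h. CIP2 rose by 9.97 and 8.86 at 24 h and by 7.11 and 6.17 at 72 h, and OPB46883 by 6.92 and 5.38 at 24 h and by 5.34 and 3.96 at 72 h. All 12 held with any 1 library left out. CIP2 and OPB46883 in ∆Tgace1 at 72 h were not called in fits of the compared groups alone (limma, adjusted p = 0.0240 and 0.0358). On xylan the 1 such call was CIP2 in ∆Tgace1 at 24 h, at 2.84 ± 0.94 (limma, adjusted p = 0.0082), and it ended in 5 of 6 omissions (2.13 to 2.87) and in a fit of these groups alone (adjusted p = 0.101). The expansin rose by 2.56 in ∆Tgace2 on Avicel at 72 h.

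A change from glucose in a mutant was also tested against the change in WT, as a difference of response in the same limma model. On Avicel 3 of 12 members responded more in ∆Tgace1 after 24 h (5.59% of all genes) and 2 after 72 h (1.61%), and in ∆Tgace2 3 after 24 h (7.76%) and 3 after 72 h (2.54%). The 24 h members were CIP1, CIP2 and OPB46883 in both mutants. On xylan 1 member, swollenin 2, responded more in ∆Tgace1 after 24 h (2.6%) and after 72 h (2.99%). In ∆Tgxyr1 the expansin responded more on Avicel after 4 h (1 of 12, 2.41%) and CIP1 less after 72 h (1 of 12, 3.53%). In WT the mean of swollenin 2 was 7.05 RPKM in glucose. It was lower on xylan at 24 h (4.00) and 72 h (2.95) and on Avicel at 72 h (3.53). The WT mean of the expansin fell from 152 RPKM in glucose to 74.1 on Avicel at 4 h and 134 at 72 h.

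The median difference of the 12 members stayed near that of all genes in most comparisons. On Avicel at 72 h it was 1.05 in ∆Tgace1 against WT, beside 0.10 over all genes, and 0.80 in ∆Tgace2, beside 0.06. In WT on Avicel against glucose it was 0.06 at 24 h, beside 0.06, and 0.10 at 72 h, beside -0.02, since most members were not among the genes that changed.

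The main enzymes that these proteins accompany were counted for comparison. The lists held 7 cellulose-cleaving genes and 13 xylan-degrading genes of the study's secretome, and were chosen here with earlier results of these data known. Of the cellulose-cleaving genes, all 7 were called higher in WT on Avicel against glucose at 24 h (6.88% of all genes) and at 72 h (2.85%). Of the xylan-degrading genes, 9 of 13 were called higher in WT on xylan at 24 h (4.58% of all genes). All 7 cellulose-cleaving genes were called lower in ∆Tgxyr1 than in WT on Avicel at 24 h (4.79%) and at 72 h (5.47%), and higher in ∆Tgace1 at both times (4.16% and 3.26%). In ∆Tgace2 7 were called higher at 24 h (7.52%) and 5 at 72 h (3.9%). As the lists were chosen with results of the same libraries known, their counts are not independent evidence. CIP1 and CIP2 moved with the cellulose-cleaving list in each of these comparisons except CIP2 in ∆Tgace2 at 72 h, while swollenin 2 and the expansin were not called in WT on Avicel.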

How the data were processed

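RNA was sequenced from mycelium of T. guizhouense NJAU4742 and 3 deletion mutants, 100 libraries in 34 groups assigned from the sample labels. Per the study's methods, the authors trimmed the reads with the FASTX-Toolkit, mapped them with Bowtie2 in TopHat2 and computed expression with Cufflinks and Cuffnorm, with Cuffdiff for the comparisons. Versions and the annotation release are not given in the sources used here. The deposited values are RPKM per gene and library (the methods also write FPKM), in 1 table in which 0 columns belonged to other samples. Their sum per library ran from 5.54e+05 to 3.30e+06, so they may hold a scaling other than to mapped reads, which was not tested. No column of the authors' own comparisons was used. Absolute depth is unknown, so no counting intervals are given. Relative depth was read from the steps between low RPKM values: 33 of 33 CIP1 values and 41 of 41 CIP2 values under 6.5 steps were whole within 0.12, but only 8 of 11 for OPB46883 and 18 of 21 for OPB43406, whose fragment values are less certain.

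Genes at 1 RPKM or more in at least 2 libraries were kept (10026 of 11244). limma 3.58.1 (R 4.3.3) with a mean-variance trend was fitted to log2(RPKM + 1) in 1 model of the 100 libraries with 34 group means and 66 residual degrees of freedom, with 84 comparisons, 21 of which were differences of response between a mutant and WT. P-values were adjusted by Benjamini and Hochberg over all genes within each comparison, and a call needed 3 conditions: adjusted p no larger than 0.01, a change of 2 or more on the log2 scale, and a mean over 2 RPKM in the higher group. The limits have the study's numbers (2, 0.01 and 2), but it applied them to Cuffdiff's fold changes and p-values, while here the fold is taken after adding 1 RPKM, which is stricter for low genes, and p is adjusted. The fit was tried on simulated data, with changes planted in genes well expressed in glucose and of small spread. The CIP genes are near 0 in WT glucose and spread widely, so that trial does not bear on them. Replicates are separate libraries of a group. The p-values rest on 1 estimate of spread per gene, pooled over the 34 groups. It can fall short of the spread in groups whose replicates differ widely, such as WT on Avicel for the CIP genes. The fits of the compared groups alone use the spread of those groups. No 2 libraries held identical values. Python 3.11.15, numpy 2.4.6, pandas 2.3.3, scipy 1.17.1 and matplotlib 3.10.9 were used for the rest.

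Alternatives were other pseudocounts (0.1 and 2), no filter on low values, a fit of the compared groups alone, median scaling, array weights, adjustment over all comparisons, a replicate block and each library left out. Leaving out the 9 libraries nearest to another group was chosen after seeing the data. Named were every member, TgXyr1, the 7 and 13 genes of the comparison lists, and for each member called in WT the 3 genes most like it by Pearson's r. The members and lists were chosen with earlier results of these data known. The genes deleted in ∆Tgace1 and ∆Tgace2 are not reported here, and no sequences are shown because no genome was used.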

Additional observations from a re-analysis of the deposited data

Results flagged for a closer look

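The response of a mutant to a medium, as its change from its own glucose libraries, was tested against the response of WT in an interaction term of the same limma model, and 15 such differences of the 12 genes passed the same limits as the other calls. Values are differences in log2(RPKM + 1) with the adjusted p of limma, and each rests on 4 groups of 3 libraries.

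On Avicel at 24 h the response was larger in ∆Tgace1 by 6.40 for CIP1 (adjusted p = 1.1e-04), 6.30 for CIP2 (1.1e-04) and 6.04 for OPB46883 (1.9e-09). In ∆Tgace2 it was larger by 4.37 for CIP1 (0.0064), 5.20 for CIP2 (0.0011) and 4.49 for OPB46883 (1.6e-06). The CIP1 value of ∆Tgace2 ranged from 2.54 to 6.56 and was not called in 9 of 12 omissions of 1 library, among them those of WT Avicel 24 h replicates 1 (2.54) and 2 (4.03), and the CIP2 value was not called without WT Avicel 24 h replicate 1 (3.45). The CIP1 and CIP2 differences of both mutants were not called in fits of the compared groups alone (limma, adjusted p = 0.0555 to 0.111) and those of OPB46883 were (0.0017 each). With a pseudocount of 0.1 the CIP1 (OPB41189) values were 6.06 in ∆Tgace1 and 2.82 in ∆Tgace2 and the CIP2 (OPB43780) value in ∆Tgace2 was 4.47, none of them called.

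On Avicel at 72 h OPB46883 responded more in ∆Tgace1 by 4.98 (limma, adjusted p = 7.1e-07) and in ∆Tgace2 by 3.60 (3.0e-04). The difference of response of swollenin 2 was 3.27 in ∆Tgace1 (1.6e-07) and 3.10 in ∆Tgace2 (7.7e-07), and that of the expansin 3.12 in ∆Tgace2 (4.9e-04). The WT means of both fell from glucose to Avicel at 72 h, from 7.05 to 3.53 RPKM and from 152 to 134 RPKM. In glucose ∆Tgace2 was lower than WT by -1.89 for swollenin 2 and -1.04 for the expansin, neither called. On xylan the difference of swollenin 2 in ∆Tgace1 was 2.74 at 24 h (4.4e-06) and 2.19 at 72 h (8.3e-05). Its WT means there, 4.00 and 2.95 RPKM, were also below glucose. The 72 h value was not called without WT glucose replicate 2 (1.91), ∆Tgace1 glucose replicate 3 (1.87) or ∆Tgace1 xylan 72 h replicate 3 (1.87), nor with a pseudocount of 2 (1.85, OPB44776). None of these 7 was called in fits of the compared groups alone (limma, adjusted p = 0.0787 to 0.199 on Avicel, 0.0510 and 0.0169 on xylan).

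In ∆Tgxyr1 the response of CIP1 to Avicel at 72 h was smaller by -5.67 (limma, adjusted p = 6.7e-04), and this was -4.01 and not called without WT Avicel 72 h replicate 1. Nor was it called in a fit of the compared groups alone (adjusted p = 0.145). The difference of response of the expansin to Avicel at 4 h was 2.37 (0.0087), where its WT mean fell from 152 RPKM in glucose to 74.1 RPKM. That difference was not called with any 1 of the 12 libraries left out (2.22 to 2.48).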

How the results depend on the processing

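The 12 genes gave 5 calls in WT against glucose, 9 between media in WT, 7 in ∆Tgxyr1, 10 in ∆Tgace1 and 6 in ∆Tgace2 against WT, 27 in the mutants against their own glucose and 15 in the differences of response. No share over all genes was counted for these totals, so they only show how the calls depend on the processing. Fits of the compared groups alone gave 1, 2, 3, 1, 1 and 5 calls in all but the mutants' own time courses, where the count was 20, and kept 30 of the 79. A pseudocount of 0.1 gave 12 calls in ∆Tgxyr1 against WT, a pseudocount of 2 gave 16 in the mutants against their own glucose, and array weights gave 26 differences of response. Without the 9 libraries nearest to another group there were 23 differences of response. Leaving out each library in turn gave 3 to 5, 6 to 10, 5 to 8, 7 to 14, 4 to 7, 23 to 29 and 12 to 18 calls. The 1 reversed value was CIP1 in ∆Tgace2 against WT on Avicel at 72 h, at -0.16 under array weights. Of the 79 calls 70 were kept with a pseudocount of 0.1, 61 with 2, 77 without the filter, 79 under median scaling, 72 under array weights, 78 with p adjusted over all comparisons and 73 without the 9 libraries. The causes were not tested. With 2 or 3 libraries a group, a difference that was not called may still exist.

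Replicate numbers did not pair the samples: over 181 pairs in 63 comparisons the median correlation of deviations was -0.01, and in 0 comparisons did all 3 pairs exceed 0.1. With the replicate block there were 5, 9, 7, 10, 6, 27 and 15 calls, and all 79 calls were kept.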
